A study of Mus musculus with 8 samples.

Results

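Signals of 44 genes, for the subunits of Mediator and the machinery that carries RNA polymerase II from initiation into elongation, were compared between wild-type and Med23-/- mouse embryonic fibroblasts. The genes were taken as a list of symbols, and their probe sets were those whose annotation names that symbol alone. Of the 44 genes, 40 had such a probe set on the array, with 62 probe sets in all out of 22690 in the series. The other 4, Cdk19, Med13, Med13l and Med18, had none under their symbol. Of the 62 probe sets, 55 were tested, having a signal at or above their array's 40th percentile on at least 2 of 8 arrays, and each of the 40 genes kept at least 1 of them. The 7 that were not tested belonged to Med17, Med24, Med29, Ccnc and Tbp, with 1 each, and to Med1, with 2.

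Mediator is the large complex that carries signals from DNA-bound activators to RNA polymerase II at the promoter. Its head and middle modules meet the polymerase, MED14 is the backbone that joins them, and the tail is where many activators dock. A separable kinase module of CDK8 or CDK19, cyclin C, MED12 and MED13 binds reversibly. MED23 is a tail subunit known as the contact for ELK1, an ETS factor that answers serum growth factors in fibroblasts. Past initiation, P-TEFb, made of CDK9 and a T-type cyclin, releases paused polymerase, and HEXIM1 and LARP7 hold P-TEFb in an inactive particle with the 7SK RNA.

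The cells were embryonic fibroblasts of day 11 embryos, passaged through crisis, the stage after which the survivors of a primary culture grow as a continuous line. Wild-type (strain label WT) and Med23-/- cells were kept for 16 h in 0.5% serum. In each genotype 1 group was then brought to 20% serum for 30 min while the other stayed starved. Each of the 4 groups had 2 arrays of total RNA, so every group mean has n = 2. The stated aim was to find genes whose answer to serum depends on MED23, by fold changes over 2. The labels name 1 kind of culture per genotype, so the loss of MED23 and any other difference between the wild-type and the knockout cells cannot be told apart. Whether the duplicates were grown separately is not stated, so p-values measure only the spread between these samples, which may be technical. In bulk RNA, fewer cells of a type and less RNA per cell cannot be told apart.

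The arrays were scaled to a common trimmed mean, between 2500.6 and 2500.8. The median signal was 862.6 to 920.1 on the wild-type arrays and the starved knockout arrays, and 764.8 and 804.6 on the stimulated knockout arrays. Over the tested member probe sets, r between replicates was 0.955 to 0.994. Between starved and stimulated arrays of 1 genotype it was 0.909 to 0.969, and between genotypes 0.642 to 0.781. These correlations run across probe sets, which are not independent replicates. Of 15 fibroblast markers on the array, 12 were at or above the array's 40th percentile on all 8 arrays, and Thy1 on none. Their summed signal was 273810 to 300070 in wild-type and 415790 to 532310 in knockout cells. Pdgfra, a growth factor receptor of mesenchymal cells, read 126.7 and 13.4 as group means in starved and stimulated wild-type cells against 13467 and 6510.2 in knockout cells. Of the 14 fibroblast markers tested, 9 were higher in knockout cells averaged over serum states, 1 was lower (Dcn, a matrix proteoglycan) and 4 did not pass (Col5a1, Col6a1, Fn1 and Sparc). All 4 pluripotency markers were below the 40th percentile on every array, as were 3 of 4 endothelial, 3 of 5 epithelial, 2 of 5 macrophage and blood (Ptprc and Adgre1) and 1 of 4 neural markers. Of the macrophage and blood list, Csf1r was at or above that percentile on all 8 arrays. Lyz2 of that list was higher in knockout cells averaged over serum states (limma, adjusted p = 0.0142). The neural sum was 1873.6 to 1922 in wild-type and 2621 to 3206 in knockout cells, with Map2 higher (347 against 1717 as means of starved cells) and Tubb3 lower (640 against 20.4). Sox10 was higher too (579 against 731 as means of starved cells). The part of these differences between the cultures in the results below was not tested.

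Med23 served as the check of the genotype labels. Its probe set read 4901 and 5410.5 in starved and 3595 and 3577 in stimulated wild-type cells, and 28.0 and 133 in starved and 34.6 and 36.9 in stimulated knockout cells. Every knockout array was below every wild-type array, and all 4 knockout values lay below the 40th percentile of their array. Differences are given as log2 of signal plus 16, knockout minus wild type, with p-values from limma adjusted by the Benjamini-Hochberg method over all tested probe sets. With each knockout array's 40th percentile in place of its Med23 signal, the geometric mean was at least 9.45-fold lower in knockout than in wild-type cells. No exact fold is given, since the log2 difference of so low a signal moves with the constant added, from -6.49 with 1 added to -5.24 with 64 added. Which part of the gene this probe set reads was not examined here.

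Across the other members, more genes passed as lower than as higher in knockout cells. Averaged over starved and stimulated cells, 31 of 55 member probe sets passed (limma, adjusted p under 0.05, Med23 included), or 56.4%, against 59.7% of all 14947 tested probe sets. Of these, 8 were higher (14.5% of the members, against 27.7% of all) and 23 lower (41.8%, against 32% of all). Each gene was then taken by its brightest tested probe set, with Med23 left out. Of 39 genes, 7 were higher, 17 lower and 15 did not pass. With 1 value per gene, the mean of its probe sets, 24 of 40 members passed, Med23 included, against 63.6% of all genes tested. The median log2 difference was -0.16 over the 39 genes and -0.04 over all tested probe sets. For the 27 Mediator genes the counts were 4 higher, 14 lower and 9 not passed, with a median of -0.32. The share of members that passed is near the background. All 4 knockout arrays lay apart from all 4 wild-type arrays for 25 of the 55 probe sets (45.5%, against 44% of all tested), 7 of them higher (12.7%, against 20.6%) and 18 lower, Med23 included (32.7%, against 23.5%). Centring each array on its median raised the median difference of all tested probe sets from -0.04 to 0.06. The members' calls then split into 12 higher and 15 lower, and under quantile normalization into 11 and 20.

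**Figure D1:**
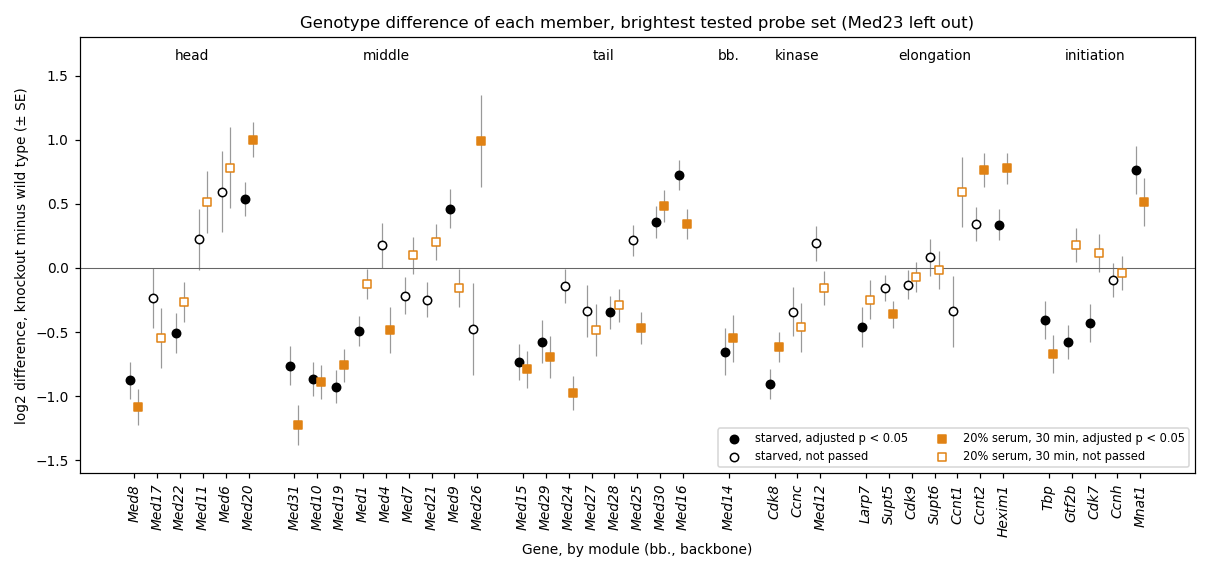
Difference between knockout and wild-type cells (y axis: log2 of signal plus 16, knockout minus wild type) in starved (black circles) and serum-stimulated cells (orange squares) for each member gene's brightest tested probe set, by module on the x axis, with Med23 left out; bars are 1 SE and filled symbols have an adjusted p under 0.05. Med31 lies at -0.76 and -1.23 and Med20 at 0.54 and 1.00, and the head holds genes on both sides of 0.

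The members whose lower signal held in the most settings were Med8, Med10, Med19, Med31, Med15 and Cdk8. Each passed in the average, in starved cells and in stimulated cells. On its brightest probe set, each kept all 3 calls under every alternative setting of the test on single probe sets. These included leaving out any 1 array, the replicate block and both other scalings. No member higher in knockout cells did so in all 3 comparisons. The share of all tested probe sets that kept such calls was not counted. The run with 1 value per gene, the mean of its probe sets, was not among these settings. It bears on Med19, whose second tested probe set did not pass in the average (-0.25, limma, adjusted p = 0.118). These 6 genes come from 4 modules: Med8 from the head, Med10, Med19 and Med31 from the middle, Med15 from the tail and Cdk8 from the kinase module.

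Med8, a small head subunit, read 4885 and 5228 in starved and 5196 and 4646 in stimulated wild-type cells, and 3075 and 2448 in starved and 2328 and 2279.9 in stimulated knockout cells. All 4 knockout arrays were below all 4 wild-type arrays, and the log2 difference was -0.98 ± 0.0999 (SE), adjusted p = 1.52e-05, or 1.98-fold lower. Med31, a small conserved subunit of the middle, read 3887 and 3685 in starved and 3927 and 3858 in stimulated wild-type cells, and 2549 and 1939 in starved and 1745 and 1570.1 in stimulated knockout cells. The groups did not overlap, and the difference was -0.99 ± 0.108 (SE), adjusted p = 2.44e-05. The estimate was -1.23 (adjusted p = 0.000122) in stimulated and -0.76 (adjusted p = 0.00233) in starved cells. The change between them did not pass (-0.46 ± 0.216 (SE), adjusted p = 0.284).

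Med10, a middle subunit, read 5740.4 and 5120.2 in starved and 6978 and 6276 in stimulated wild-type cells, and 3236 and 2727 in starved and 3463 and 3681 in stimulated knockout cells, with no overlap and a difference of -0.88 ± 0.0941 (SE), adjusted p = 2.23e-05. Its estimate was -0.86 in starved and -0.89 in stimulated cells. Med19, which lies at the hook of the middle module toward the polymerase, read 5066 and 5084 in starved and 4468 and 3725 in stimulated wild-type cells, and 2626 and 2706 in starved and 2396 and 2418 in stimulated knockout cells and differed by -0.84 ± 0.0909 (SE), adjusted p = 2.34e-05. In both genes the lowest wild-type array lay above the highest knockout array. The fold lower, from these log2 differences, was between 1.69-fold (Med19, stimulated) and 2.34-fold (Med31, stimulated) over these 4 genes and both serum states.

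Med15, the tail subunit contacted by SMAD and sterol-response factors, read 4039.9 and 4339.8 in starved and 3431 and 3934 in stimulated wild-type cells, and 2471 and 2553 in starved and 1908 and 2346 in stimulated knockout cells and differed by -0.76 ± 0.102 (SE), adjusted p = 0.000101. Cdk8, the catalytic subunit of the kinase module, read 6212 and 5742 in starved and 5929 and 5853 in stimulated wild-type cells, and 3276 and 3096 in starved and 4048 and 3641 in stimulated knockout cells and differed by -0.76 ± 0.0831 (SE), adjusted p = 2.55e-05. For both genes all knockout arrays were below all wild-type arrays. For Cdk8 the difference was -0.90 in starved cells (adjusted p = 0.00016) and -0.62 in stimulated cells (adjusted p = 0.00166).

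The promoters of 5 of these genes are printed to show the sequence around their start. They come from RefSeq on build GRCm38.p6, with 250 bases before and 50 after the start, on the gene's own strand. Capitals mark matches to CCGGAAG or its reverse complement CTTCCGG, the core that ETS factors bind. Of 44 members, 38 had a promoter entry; Ccnh, Cdk19, Med8, Med23, Med24 and Med30 had none. Each window is given with its strand. Med10 lies at chr13:69809632-69809931 on the plus strand, Med19 at chr2:84678152-84678451 on the plus strand, Med15 at chr16:17722851-17723150 on the minus strand, Med31 at chr11:72215543-72215842 on the minus strand and Cdk8 at chr5:146231000-146231299 on the plus strand.
Med10: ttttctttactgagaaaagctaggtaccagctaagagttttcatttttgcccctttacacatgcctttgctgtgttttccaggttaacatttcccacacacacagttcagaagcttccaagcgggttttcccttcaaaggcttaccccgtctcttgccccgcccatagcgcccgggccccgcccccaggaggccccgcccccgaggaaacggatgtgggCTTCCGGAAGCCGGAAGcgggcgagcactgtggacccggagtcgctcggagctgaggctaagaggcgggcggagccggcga
Med19: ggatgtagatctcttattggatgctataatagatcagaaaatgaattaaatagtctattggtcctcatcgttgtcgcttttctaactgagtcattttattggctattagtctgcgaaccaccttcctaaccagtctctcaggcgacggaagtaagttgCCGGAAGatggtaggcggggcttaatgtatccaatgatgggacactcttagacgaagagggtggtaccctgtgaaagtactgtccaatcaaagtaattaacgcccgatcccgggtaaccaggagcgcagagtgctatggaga
Med15: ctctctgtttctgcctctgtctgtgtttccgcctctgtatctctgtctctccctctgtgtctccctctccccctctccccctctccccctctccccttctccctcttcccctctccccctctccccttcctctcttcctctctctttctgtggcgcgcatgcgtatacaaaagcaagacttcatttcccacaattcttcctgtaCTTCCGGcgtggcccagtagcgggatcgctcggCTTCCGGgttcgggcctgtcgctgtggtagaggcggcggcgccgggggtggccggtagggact
Med31: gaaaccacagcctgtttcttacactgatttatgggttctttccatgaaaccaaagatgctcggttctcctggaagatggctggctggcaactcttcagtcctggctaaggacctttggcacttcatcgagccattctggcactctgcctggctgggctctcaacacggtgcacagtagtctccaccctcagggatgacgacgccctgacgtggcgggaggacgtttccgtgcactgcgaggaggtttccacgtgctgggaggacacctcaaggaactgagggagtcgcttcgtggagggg
Cdk8: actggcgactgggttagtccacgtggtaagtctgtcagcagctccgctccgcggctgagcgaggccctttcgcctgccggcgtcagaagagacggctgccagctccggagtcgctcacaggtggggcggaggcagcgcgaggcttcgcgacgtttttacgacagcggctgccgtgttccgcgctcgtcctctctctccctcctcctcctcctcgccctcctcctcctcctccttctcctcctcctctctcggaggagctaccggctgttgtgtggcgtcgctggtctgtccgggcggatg
The Med10 promoter held 3 matches close together before the start, the first pair of them overlapping on opposite strands. RefSeq lists a second Med10 start further upstream that held none. Med15 held 2 and Med19 held 1, while the windows of Med31 and Cdk8 held none. Over all 42 member promoters, counting both strands, 12 (28.6%) held the ETS core, against 2910 of 32851 promoters in the table (8.86%). By gene this was 11 of 38, as 2 overlapping windows of Med15 held the same matches. The share among promoters of expressed genes alone was not counted. By direction of the genotype difference the ETS core was found in 4 of 15 lower genes, 1 of 6 higher genes and 5 of 14 that did not pass. It was also in Med18, which has no probe set here. The SP1 core GGGCGGG was in 17 of 42 (40.5%, against 25.6% of all), and TATAAA in 3 (7.14%, against 13.6%). The YY1 core AAGATGGCG was in 2, those of Gtf2b and Supt5 (4.76%, against 1.4%). Matches of different motifs can share bases and were counted separately. A match is a description of these letters only.

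**Figure D2:**
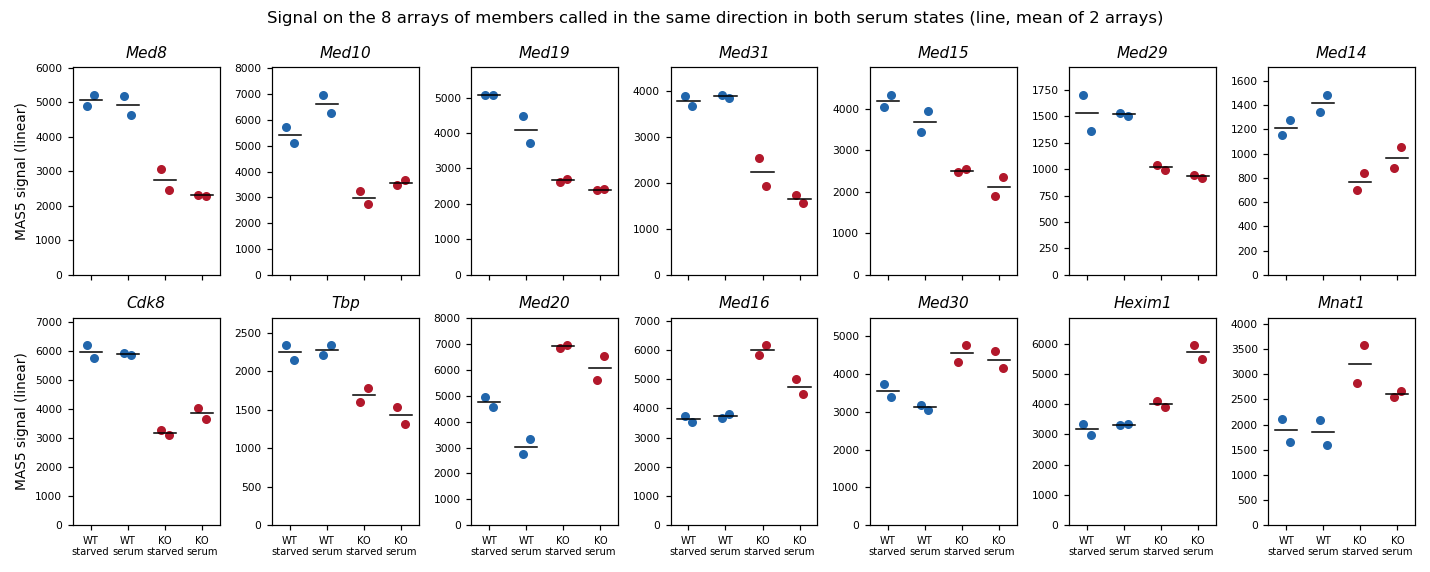
Signal on each of the 8 arrays (y axis: deposited intensity, linear from 0; x axis: the 4 groups, 2 arrays each as points, blue for wild type and red for knockout, lines for the mean) for the members that passed in the same direction in starved and in stimulated cells. Med8 falls from 4646 or more in wild-type cells to 3075 or less in knockout cells, and Med16 rises from 3823 or less to 4503 or more.

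The head held changes in both directions. Of its 6 genes on the array, 2 were higher (Med6 and Med20), 2 lower (Med8 and Med22) and 2 did not pass (Med11 and Med17). Of all tested probe sets 27.7% were higher and 32% lower. These shares are the background for every module count, and are over probe sets and not genes. Med20, the partner of MED18 in the head, read 4975 and 4559 in starved and 2755 and 3322 in stimulated wild-type cells, and 6868 and 6983 in starved and 5632 and 6541 in stimulated knockout cells on its brighter probe set. The groups did not overlap, and the difference was 0.77 ± 0.0949 (SE), adjusted p = 5.9e-05, with 0.54 in starved and 1.00 in stimulated cells. Its second probe set read 3420.4 and 3749.8 in starved and 2632 and 2802 in stimulated wild-type cells, and 4017 and 3116 in starved and 2937 and 2789 in stimulated knockout cells, overlapped between genotypes and differed by 0.03 ± 0.104 (SE), adjusted p = 0.824, so the rise rests on 1 of 2 probe sets. Med6, needed for the head to meet the polymerase, read 430.1 and 234 in starved and 346 and 492 in stimulated wild-type cells, and 518 and 460.3 in starved and 703 and 741 in stimulated knockout cells. The genotypes overlapped, and the difference was 0.69 ± 0.225 (SE), adjusted p = 0.0223. That call ended without the second starved wild-type, the first stimulated wild-type, the first starved knockout or either stimulated knockout array, with adjusted p up to 0.0806. Med22 was lower (-0.39, adjusted p = 0.0113) with no overlap. The median difference over the 6 genes was -0.01 and had no settled sign. It was 0.08 and 0.09 under the other scalings, 0.145 without the second starved knockout array and -0.353 with Med27, Med28, Med29 and Med30 counted in the head. The SD between replicates of a group in the module's median log2 signal was 0.150. For the modules below, SD of signal means this spread, which is not an error of the median difference.

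In the middle module no gene was higher on average (background 27.7%) and 4 of 9 were lower (Med1, Med10, Med19 and Med31, background 32%). The other 5 did not pass (Med4, Med7, Med9, Med21 and Med26). Med1, the subunit that nuclear receptors contact through a short leucine-rich motif, had 4 tested probe sets, all lower in knockout cells with no overlap between genotypes. The brightest read 4823 and 5411 in starved and 4694 and 4829 in stimulated wild-type cells, and 3733 and 3536 in starved and 4423 and 4307 in stimulated knockout cells and differed by -0.31 ± 0.0825 (SE), adjusted p = 0.00844, and this call and that of the next brightest ended with arrays centred on their median (adjusted p up to 0.0802 and 0.0504). The dimmest read 651 and 609 in starved and 545 and 692 in stimulated wild-type cells, and 314 and 323 in starved and 272 and 327 in stimulated knockout cells and differed by -0.98 ± 0.181 (SE), adjusted p = 0.000934. The probe sets of Med1 thus passed in the same direction with sizes from -0.98 to -0.31. Med26, the subunit that binds elongation factors, was uneven between replicates, at 1800.3 and 1844 in starved and 2272 and 1517 in stimulated wild-type cells, and 2112 and 806 in starved and 3927 and 3506 in stimulated knockout cells, and its average difference was 0.26 ± 0.253 (SE), adjusted p = 0.401. The module's median difference was -0.15 (SD of signal 0.148), -0.08 under quantile normalization and -0.05 with arrays centred.

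The tail is the module of MED23 itself. Without Med23, 5 of 8 genes were lower (Med15, Med24, Med27, Med28 and Med29, background 32%). Of the rest, 2 were higher (Med16 and Med30, background 27.7%) and only Med25 did not pass. The median difference was -0.37 (SD of signal 0.0586), -0.26 with arrays centred and -0.451 to -0.279 over the arrays left out. These counts depend on placing Med27, Med28, Med29 and Med30 in the tail. With those counted in the head, Med15 and Med24 were lower, Med16 was higher and Med25 did not pass, with a median of -0.343. Med16, the tail subunit that neighbours MED23 and MED24, read 3738 and 3538 in starved and 3661 and 3823 in stimulated wild-type cells, and 5843 and 6187 in starved and 5002 and 4503 in stimulated knockout cells. Every knockout array was above every wild-type array, with a difference of 0.53 ± 0.083 (SE), adjusted p = 0.000297. It was 1.65-fold higher in starved cells (adjusted p = 0.000652) and 1.27-fold higher in stimulated cells (adjusted p = 0.0335, 0.00704 to 0.2 over the alternatives, lost when any 1 of the 4 stimulated arrays was left out). Med30, a subunit of animal Mediator, read 3723 and 3377 in starved and 3180.1 and 3056 in stimulated wild-type cells, and 4322 and 4773 in starved and 4615 and 4147 in stimulated knockout cells and was higher, with a difference of 0.42 ± 0.0888 (SE), adjusted p = 0.00211, with no overlap. Med24, which binds next to MED16 and MED23, read 2793 and 2771 in starved and 2493 and 2360.1 in stimulated wild-type cells, and 2371 and 2688 in starved and 1247 and 1205 in stimulated knockout cells. The genotypes lay apart in both states, and the difference passed in stimulated (-0.98 ± 0.134 (SE), adjusted p = 0.000222) and not in starved cells (-0.14 ± 0.134 (SE), adjusted p = 0.424). Med29 read 1705 and 1356 in starved and 1535 and 1498 in stimulated wild-type cells, and 1041 and 991 in starved and 946 and 915 in stimulated knockout cells and was lower, with a difference of -0.63 ± 0.118 (SE), adjusted p = 0.000983, with no overlap. The smaller differences of Med27 (-0.41) and Med28 (-0.32 and -0.47 on its 2 probe sets) did not all hold under the other scalings: Med27 and the dimmer Med28 probe set lost their calls under both, and the brighter Med28 probe set with arrays centred. Med27 and the dimmer Med28 probe set also lost their calls without the second starved wild-type, second stimulated wild-type, second starved knockout or second stimulated knockout array (adjusted p up to 0.112 and 0.0743), and the dimmer Med28 probe set moved from -0.47 to -0.31 without the second starved knockout array.

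Med14, the backbone that joins head, middle and tail, was lower. It read 1150.1 and 1277 in starved and 1344 and 1487 in stimulated wild-type cells, and 697 and 838 in starved and 878 and 1051 in stimulated knockout cells, with no overlap between genotypes and a difference of -0.60 ± 0.129 (SE), adjusted p = 0.00236. In the kinase module, 3 of 6 genes were on the array, and Cdk8 and Ccnc were lower (background 32%) while Med12 did not pass. Ccnc encodes cyclin C, the partner of CDK8, and its brighter probe set read 949.9 and 1277 in starved and 1112 and 1165 in stimulated wild-type cells, and 825 and 911 in starved and 807 and 838 in stimulated knockout cells. The groups lay apart by -0.40 ± 0.135 (SE), adjusted p = 0.0259. The call ended under both other scalings and without any 1 of 6 arrays, all but the first starved wild-type and the second starved knockout array (adjusted p up to 0.108). Its second probe set differed by -0.21 ± 0.166 (SE), adjusted p = 0.292. Med12, which activates CDK8 through cyclin C, read 3870.1 and 4123 in starved and 3432 and 4048 in stimulated wild-type cells, and 4289 and 4857 in starved and 3192 and 3502 in stimulated knockout cells, overlapped and differed by 0.02 ± 0.095 (SE), adjusted p = 0.883.

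Among the 7 elongation genes, 2 were higher (Ccnt2 and Hexim1, background 27.7%), 2 lower (Larp7 and Supt5, background 32%) and 3 did not pass (Cdk9, Ccnt1 and Supt6). Their median difference was 0.03 (SD of signal 0.104), and -0.0632 to 0.129 over the arrays left out. Cdk9, the kinase of P-TEFb, read 8007 and 7074 in starved and 6817 and 7542 in stimulated wild-type cells, and 7166 and 6609 in starved and 6788 and 6869 in stimulated knockout cells, and its difference was -0.10 ± 0.0818 (SE), adjusted p = 0.318. Its partner cyclin T2 was higher: the brightest Ccnt2 probe set read 1849 and 1918 in starved and 1266 and 1255 in stimulated wild-type cells, and 2353 and 2429.7 in starved and 2187 and 2111 in stimulated knockout cells, with no overlap and a difference of 0.55 ± 0.0935 (SE), adjusted p = 0.000529. The second Ccnt2 probe set differed by 0.62 ± 0.137 (SE), adjusted p = 0.0028 and the third by 0.12 ± 0.19 (SE), adjusted p = 0.622, so 2 of 3 passed. Hexim1, the inhibitor of P-TEFb, read 3359 and 2996 in starved and 3321 and 3331 in stimulated wild-type cells, and 4105 and 3919.6 in starved and 5967 and 5483 in stimulated knockout cells. Every knockout array was above every wild-type array, with a difference of 0.56 ± 0.0855 (SE), adjusted p = 0.000264; the second probe set differed by 0.39 ± 0.17 (SE), adjusted p = 0.0709. Larp7, which stabilises the 7SK RNA, was lower on both probe sets (-0.35 and -0.38, adjusted p = 0.0166 and 0.0121), and these 2 calls were lost without the first stimulated knockout array (adjusted p up to 0.0657 and 0.0555). Larp7's brighter probe set also lost its call with arrays centred and without the first starved or second stimulated wild-type array. Supt5, a subunit of the pausing factor DSIF, read 14434 and 14965 in starved and 14062 and 15167 in stimulated wild-type cells, and 12428 and 13964 in starved and 11176 and 11551 in stimulated knockout cells and was lower, with a difference of -0.26 ± 0.073 (SE), adjusted p = 0.0107, a call that ended with arrays centred (adjusted p up to 0.104).

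Of the 5 initiation genes, Mnat1 was higher (background 27.7%), Tbp lower (background 32%), and Cdk7, Ccnh and Gtf2b did not pass on average. Their median difference was -0.16 (SD of signal 0.113). Mnat1 encodes the assembly factor of the CDK7 kinase of TFIIH and read 2112 and 1654 in starved and 2095 and 1589 in stimulated wild-type cells, and 2830.1 and 3588 in starved and 2556 and 2676 in stimulated knockout cells. The knockout arrays were all above the wild-type arrays, with a difference of 0.64 ± 0.133 (SE), adjusted p = 0.00191. Its partners did not pass on their brightest probe sets: Cdk7 differed by -0.16 ± 0.105 (SE), adjusted p = 0.224 and Ccnh, cyclin H, by -0.07 ± 0.0937 (SE), adjusted p = 0.555. Tbp, the TATA-binding protein, read 2349 and 2149 in starved and 2212 and 2344 in stimulated wild-type cells, and 1598 and 1785 in starved and 1538 and 1317 in stimulated knockout cells and was lower, with a difference of -0.54 ± 0.105 (SE), adjusted p = 0.00125, with no overlap.

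The genotype difference was also examined within each serum state. In starved cells 27 of 55 member probe sets passed (49.1%, against 47.6% of all tested), 7 higher (background 22.8%) and 20 lower (36.4%, background 24.8%). In stimulated cells 25 passed (45.5%, against 50.2% of all), 9 higher (background 22.7%) and 16 lower (29.1%, background 27.5%). Med23 is among the lower probe sets in both counts. By each gene's brightest tested probe set, 5 genes were higher in both states (Med20, Med16, Med30, Hexim1 and Mnat1) and 9 lower in both (Med8, Med10, Med19, Med31, Med15, Med29, Med14, Cdk8 and Tbp), while 12 passed in neither. The share of all tested probe sets that passed in both states was not counted. On these probe sets no gene passed in opposite directions, and of those that passed in both states only the 6 named first kept both calls under every alternative. Past the threshold in starved cells alone on the brightest probe set, Med9 was higher and Med22, Med1, Med28, Larp7, Cdk7 and Gtf2b were lower. In stimulated cells alone, Med26 and Ccnt2 were higher and Med4, Med24, Med25 and Supt5 were lower. Dimmer probe sets of 3 genes passed in a state where the brightest did not. For Med1, 2 of the dimmer probe sets were lower in stimulated cells, with differences of -0.95 ± 0.188 (SE), adjusted p = 0.00206 and -1.01 ± 0.256 (SE), adjusted p = 0.00828. For Ccnt2, the second of its 3 probe sets was higher in starved cells too (0.66 ± 0.194 (SE), adjusted p = 0.0179). For Ccnh, 1 of 3 probe sets was higher in stimulated cells (0.45 ± 0.146 (SE), adjusted p = 0.0256). Whether the difference itself changed with serum is given by the interaction. With all arrays centred on their median the stimulated split was 13 higher and 12 lower in place of 9 and 16, and the share of higher calls among all probe sets went from 45.3% to 59.3%.

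Both starved knockout arrays lay apart from both starved wild-type arrays for 39 member probe sets (background 73.3%), 13 higher (background 36%) and 26 lower (background 37.3%). In stimulated cells the arrays lay apart for 46 (background 78.3%), 17 higher (background 35.9%) and 29 lower (background 42.3%). Med23 is among the lower ones in both states.

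The counts of calls depended on single arrays. In starved cells 16 member probe sets passed without the first starved wild-type array, 12 without the second, and 15 without the second starved knockout array. In stimulated cells 15 passed without the first stimulated knockout array. Among single genes, the starved calls of Tbp (adjusted p = 0.0436, up to 0.19) and Hexim1 (adjusted p = 0.0418, up to 0.215) ended whichever of the 8 arrays was left out. That of Med30 (adjusted p = 0.0392, up to 0.19) ended without any array but the first starved knockout array, and that of Med28 (-0.35, adjusted p = 0.0484) without any but the first starved wild-type array, moving to -0.17 without the second starved wild-type array. Gtf2b, the factor that places the polymerase at the promoter, lost its starved call (-0.58, adjusted p = 0.00494) without the second starved wild-type array (adjusted p = 0.0508). In stimulated cells the calls of Med26 (adjusted p = 0.0408, up to 0.222), Med4 (adjusted p = 0.0426, up to 0.23) and Mnat1 (adjusted p = 0.0423, up to 0.263) were each lost without either stimulated knockout array. They also ended without the second stimulated wild-type array (Med26 and Mnat1), the first (Med4) or either starved wild-type array (Med26). Med14 lost its stimulated call (-0.55, adjusted p = 0.0293, up to 0.172) under both other scalings and without either stimulated wild-type or the first stimulated knockout array. The starved calls of Med20 (adjusted p up to 0.0548), Mnat1 (up to 0.0637), Med29 (up to 0.14) and Med14 (up to 0.0835) also ended without single starved arrays. These were the second wild-type array for Med20, Mnat1 and Med14, the first wild-type array for Med29, the second knockout array for Mnat1 and Med29 and the first knockout array for Med14. The starved calls of Med9, Med22, Larp7 and Cdk7 and the stimulated calls of Med25 and Supt5 also ended without at least 1 of the arrays compared. Mnat1's stimulated difference fell to 0.32 without the second stimulated wild-type array. The second Ccnt2 probe set went from 0.66 to 0.43 in starved cells without the second starved wild-type array and lost its call.

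**Figure D3:**
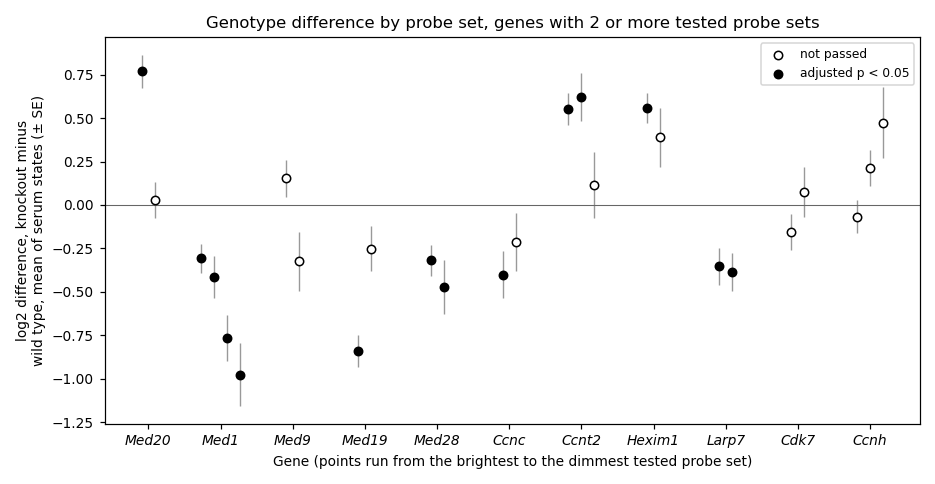
Log2 difference between knockout and wild-type cells (y axis, average of both serum states, bars 1 SE) for every tested probe set of the 11 genes that have 2 or more (x axis: genes; filled points: adjusted p under 0.05). All probe sets of Med1, Med28 and Larp7 are filled and below 0, while only 1 of 2 Med20 probe sets is filled.

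Of the 11 genes with at least 2 tested probe sets, the probe sets gave differences of 1 sign in 8. All probe sets passed in 1 direction in 3 genes (Med1, Med28 and Larp7), some passed and some did not in 5 (Med20, Med19, Ccnc, Ccnt2 and Hexim1), and none passed in 3 (Med9, Cdk7 and Ccnh). No gene had probe sets that passed in opposite directions. The second Med19 probe set, at 949 and 942 in starved wild-type cells, differed by -0.25 (adjusted p = 0.118), against -0.84 for the brighter one. Which part of its gene each probe set reads was not examined.

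After 30 min of serum, the share of member probe sets that passed in wild-type cells was near the background. Of 55 member probe sets 2 passed (3.64%, against 4.14% of all tested), none higher (background 2.44%) and both lower (background 1.7%), with 9 at an unadjusted p under 0.05. Med20 went from 4975 and 4559 in starved to 2755 and 3322 in stimulated wild-type cells, with no overlap and a log2 difference of -0.65 ± 0.134 (SE), adjusted p = 0.0231. Ccnt2 went from 1849 and 1918 to 1266 and 1255, a difference of -0.57 ± 0.132 (SE), adjusted p = 0.0396. In both genes the stimulated arrays lay below the starved ones. The Med20 call ended without either starved or the first stimulated wild-type array (adjusted p up to 0.164). The Ccnt2 call ended under 11 of 17 alternatives, among them both scalings and each wild-type array left out (adjusted p up to 0.195). Starved and stimulated wild-type arrays lay apart for 29 member probe sets (background 50.3%), 11 higher after serum (background 20.5%) and 18 lower (background 29.8%). No member passed without either starved wild-type array or without the first stimulated one.

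In knockout cells 11 member probe sets of 11 genes passed after serum (20%, against 23.1% of all tested), 5 higher (background 9.33%) and 6 lower (background 13.8%), and the median of all tested probe sets was -0.13. The higher genes were Med26, Ccnt1, Med7, Gtf2b and Hexim1, and the lower ones Med24, Med9 on its dimmer probe set, Med17, Med4, Med25 and Med12. Med24 went from 2371 and 2688 in starved to 1247 and 1205 in stimulated knockout cells, 2.05-fold lower (-1.03 ± 0.134 (SE), adjusted p = 0.000601). The arrays of the 2 serum states lay apart for 43 member probe sets (background 62.5%), 20 higher (background 21.4%) and 23 lower (background 41.1%). Of the 11 calls, only that of Med24 was kept under every alternative setting of the test.

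Med26, which recruits elongation factors to Mediator, went from 2112 and 806 to 3927 and 3506 in knockout cells. The groups did not overlap, but the starved replicates differed widely, and the log2 difference of 1.49 ± 0.358 (SE), adjusted p = 0.0148 fell to 0.81 without the second starved knockout array. Ccnt1, cyclin T1, went from 2995 and 2109.6 to 5716 and 5207, a difference of 1.11 ± 0.276 (SE), adjusted p = 0.0172. In wild-type cells Ccnt1 went from 3433 and 2944 to 5069 and 2569. The difference between its responses did not pass (interaction 0.93 ± 0.39 (SE), adjusted p = 0.234). Hexim1, whose protein holds the cyclin T and CDK9 pair inactive, went from 4105 and 3919.6 to 5967 and 5483 (0.51 ± 0.121 (SE), adjusted p = 0.0142). The second Hexim1 probe set differed by 0.26 ± 0.24 (SE) and did not pass (limma, adjusted p = 0.467). By brightest probe set, 2 of the 7 elongation genes were higher after serum in knockout cells and none lower. Of all tested probe sets, 9.33% were higher and 13.8% lower. Med7 rose from 2426 and 2009.5 to 3521 and 3522 (0.67 ± 0.146 (SE), adjusted p = 0.0095) and Gtf2b from 3155 and 3012 to 4768 and 4437 (0.57 ± 0.132 (SE), adjusted p = 0.0123). In the tail, Med25, the subunit that viral and ETS-family activators contact, went from 3410.0 and 3319.9 to 2443 and 2337 (-0.49 ± 0.124 (SE), adjusted p = 0.0186). In the head, Med17 went from 3152 and 1879.8 to 1067 and 1466 (-0.95 ± 0.234 (SE), adjusted p = 0.0167), and the difference moved to -0.58 without the first starved knockout array, where the call ended.

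These knockout serum calls rested on the stimulated knockout arrays, whose median signal was the lowest of the 8. Leaving out the first of them left 1 member call (Med24) and leaving out the second left 4 (Med24, Med17, Gtf2b and Hexim1). Without the second starved knockout array Med7, Ccnt1, Hexim1 and Med12 did not pass, and without the first Med17, Med9, Med4 and Med25 did not. Centring the arrays on their median moved the median of all tested probe sets from -0.13 to 0.03. It split the member calls into 11 higher and 3 lower in place of 5 and 6, and quantile normalization into 6 and 4. Of all called probe sets 40.4% were higher as deposited, 49.6% after quantile normalization and 66.3% after centring. The part of the lower array medians in these differences was not tested.

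**Figure D4:**
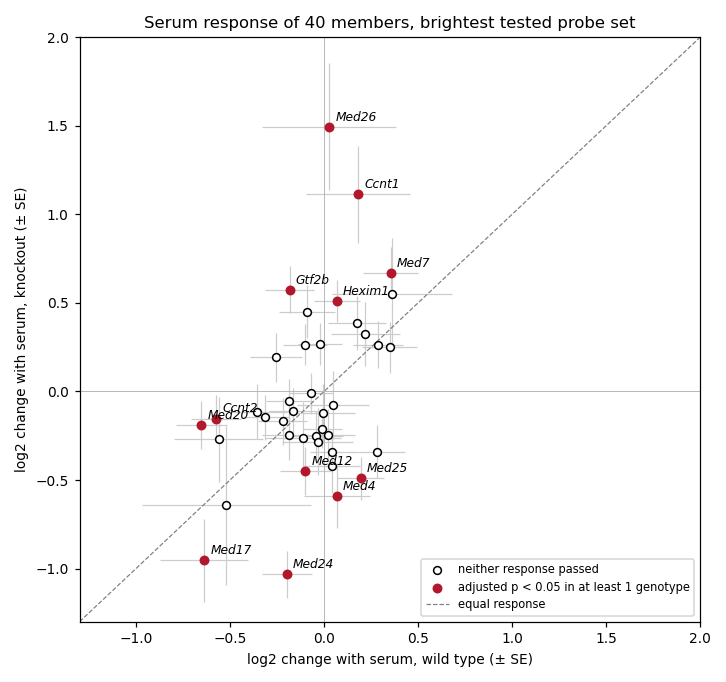
Log2 difference between serum-stimulated and starved cells for each member gene's brightest tested probe set, in wild-type (x axis) and knockout cells (y axis), as log2 of signal plus 16, with the line of equal response. Med26 (0.03, 1.49) and Ccnt1 (0.18, 1.11) lie above the line and Med24 (-0.20, -1.03) below it, and of these only Med24 passed in the interaction. The 2 axes use different arrays.

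The interaction tests whether the serum response differed between genotypes, or equally whether the genotype difference changed with serum. It called 1 of 55 member probe sets (1.82%, against 2.69% of all tested). The call was lower in knockout cells (background 1.08%), none was higher (background 1.61%), and 14 probe sets were at an unadjusted p under 0.05. The 1 gene was Med24, with a log2 difference between responses of -0.84 ± 0.19 (SE), adjusted p = 0.0492. In wild-type cells its signal went from 2793 and 2771 to 2493 and 2360.1 (-0.20 ± 0.134 (SE), adjusted p = 0.496) and in knockout cells it was 2.05-fold lower. The call ended under 12 of 16 alternatives, with adjusted p between 0.0411 and 0.143 and differences between -0.93 and -0.72, and it was lost when any array but the first starved knockout array was left out. Next by p were Gtf2b (0.76 ± 0.187 (SE), adjusted p = 0.0659) and Med25 (-0.69 ± 0.175 (SE), adjusted p = 0.0723). Both passed where each gene was given 1 value, the mean of its probe sets (adjusted p = 0.0427 and 0.0426). Each of the 2 genes has only 1 probe set, so their estimates were the same there and only the other values fitted and tested differed. For Med26 the estimate was large and imprecise (1.47 ± 0.506 (SE), adjusted p = 0.159), and it passed without the first starved knockout array (2.15, adjusted p = 0.0101). Of all called interactions, 60% were higher as deposited and 76.6% with arrays centred. For the genes named above as passing in 1 serum state alone on their brightest probe set, other than Med24, no change of the genotype difference with serum passed.

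Other genes of the same machinery were read from 3 lists. Of the 13 genes named Polr2a to Polr2m, most of them for subunits of RNA polymerase II, 11 were on the array. Of these, 4 were lower in knockout cells, 1 higher and 6 did not pass on average, with a median of -0.15. Polr2b, the second largest subunit, read 10441 and 10639 in starved and 8645 and 8150.3 in stimulated wild-type cells, and 7125 and 5474 in starved and 4994 and 4579 in stimulated knockout cells and was lower, with a difference of -0.78 ± 0.0958 (SE), adjusted p = 5.64e-05, with no overlap. Polr2j (-0.51, adjusted p = 0.00177) and Polr2g (-0.36, adjusted p = 0.00524) were lower and Polr2f higher (0.32, adjusted p = 0.0142). Of 18 other general factors on the array out of 30, 7 were lower, 3 higher and 8 did not pass, with a median of -0.24. Of these, Taf13, a subunit of TFIID, read 5157 and 6248 in starved and 5558 and 4737 in stimulated wild-type cells, and 2331 and 2384 in starved and 4657 and 5179 in stimulated knockout cells: the starved knockout arrays stood below all others, and the stimulated knockout arrays overlapped with wild type. Its difference was -1.26 ± 0.14 (SE), adjusted p = 5.55e-05 in starved cells, and the response to serum differed between genotypes by 1.20 ± 0.198 (SE), adjusted p = 0.0138. Taf6 (-0.66), Ercc3 (-0.55), a helicase of TFIIH, and Tbpl1 (-0.55) were lower with no overlap.

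Of 32 other pausing and elongation factors, 22 were on the array, and 8 were lower, 3 higher and 11 did not pass, with a median of -0.09. Nelfcd, a subunit of the negative elongation factor that holds polymerase near the start, read 2543 and 1770.4 in starved and 1877 and 1606 in stimulated wild-type cells, and 806 and 753 in starved and 449.6 and 569 in stimulated knockout cells and was 3-fold lower (-1.59 ± 0.151 (SE), adjusted p = 9.42e-06). Aff1, a scaffold of the super elongation complex that carries P-TEFb, read 6954 and 7799 in starved and 9621 and 10004 in stimulated wild-type cells, and 4027 and 4278 in starved and 4205 and 4768 in stimulated knockout cells and was lower, with a difference of -0.98 ± 0.084 (SE), adjusted p = 4.63e-06. In both genes every knockout array was below every wild-type array. Supt16, a subunit of the histone chaperone FACT, was lower (-0.72, adjusted p = 5.64e-05), as was Ssu72, a phosphatase of the polymerase tail (-0.62, adjusted p = 0.000168). By each gene's brightest tested probe set, these 3 lists had 4 of 11, 7 of 18 and 8 of 22 genes lower. Of all tested probe sets 32% were lower, a share over probe sets and not over genes.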

How the data were processed

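Total RNA of 8 samples, 2 in each of 4 groups, was labelled with biotin and run on 1 array each. Per probe set the authors deposited an intensity on a linear scale, computed by MAS5 according to their processing notes, with no version named. Mismatch signal is subtracted in MAS5, which makes low values noisy. The number of arrays limits the precision. An exact permutation test of a single value (two-sided) cannot go below 0.333 for 2 arrays against 2 and 0.0286 for 4 against 4.

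After 64 control probe sets were left out, probe sets at or above their array's 40th percentile on at least 2 of 8 arrays were tested (14947, naming 8453 genes). Log2 of intensity plus 16 was fitted with limma 3.58.1 in R 4.3.3 over all 8 arrays, with eBayes (mean-variance trend, two-sided), and calls at an adjusted p under 0.05 over all tested probe sets. The 6 comparisons were knockout against wild type averaged and in each serum state, serum in each genotype, and their interaction; the genotype and serum comparisons share arrays. The script was tested on simulated data. A gene was represented by its brightest tested probe set. Any member could be named, with full values for those called in a genotype comparison or the interaction, up to 4 per module and comparison, and of each other list the 4 genes with the smallest p; values of further members were added beside them. Members, lists and motifs were chosen with earlier results of these data known. The alternatives were other added constants, scalings, filters, variance settings and representatives of a gene, the replicate block, another placing of Med27 to Med30, and leaving out each array. Promoters were matched by symbol. Figures were drawn with matplotlib 3.10.9.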

Additional observations from a re-analysis of the deposited data

Results flagged for a closer look

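The serum response of Med24 differed between the genotypes. The response in knockout minus that in wild-type cells was -0.84 on the log2 scale (limma, adjusted p = 0.0492), from a log2 difference of -0.20 in wild-type cells and -1.03 in knockout cells. Both knockout arrays were lower after serum than before it, and both wild-type arrays were too. The part of the lower median signal of the stimulated knockout arrays in this value was not tested; with arrays centred on their median the difference of Med24 was -0.72 and no longer passed. The call ended under 12 of 16 alternatives, with adjusted p between 0.0411 and 0.143.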

How the results depend on the processing

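No member probe set that passed changed sign under any alternative run on single probe sets. Of the calls, 21 of 31 were kept under every such alternative for the genotype difference averaged over serum states, 8 of 27 in starved cells, 14 of 25 in stimulated cells, 0 of 2 for serum in wild type, 1 of 11 for serum in knockout and 0 of 1 for the interaction. The share of calls kept among all tested probe sets was not counted. The study's fold over 2, joined here to a condition that arrays do not overlap, gave 1, 1, 5, 0, 4 and 1 member probe sets of 55 in these comparisons, against 17.2%, 19.3%, 20.5%, 3.03%, 6.96% and 4.93% of all tested. In the average and in starved cells the 1 was Med23 itself, so no other member met the rule there. Med23 is also among the 5 in stimulated cells. The 1 for the interaction was higher in knockout cells, not Med24. Serum in wild type gave 1 call under quantile normalization, centring on the median, no filter, no mean-variance trend, the replicate block and 1 value per gene; the interaction gave 0 under the first 5 of these and 3 with 1 value per gene, where fewer values were tested. Leaving out 1 array gave 27 to 31 calls for the average, 12 to 23 in starved cells, 15 to 27 in stimulated cells, 0 to 2 for serum in wild type, 1 to 11 for serum in knockout and 0 to 2 for the interaction. The median over genes ranged over the arrays left out from -0.0682 to 0.145 in the head, from -0.227 to -0.0835 in the middle, from -0.451 to -0.279 in the tail, from -0.506 to -0.296 in the kinase module, from -0.0632 to 0.129 for elongation and from -0.216 to -0.088 for initiation. With Med27 to Med30 counted in the head, it was -0.353 in the head and -0.343 in the tail. It was -0.262 in the tail with arrays centred, and -0.0411 for initiation with the mean of a gene's probe sets. The cause of these changes was not tested.

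Deviations from group means of same-numbered arrays correlated by 0.214 between starved and stimulated wild-type cells and by 0.097 between starved and stimulated knockout cells. Across genotypes the correlations lay between -0.034 and 0.0056. Whether same-numbered arrays of a genotype share a culture is not stated, and the main fit left out the set number. With it as a replicate block, the calls were 32, 25, 26, 1, 12 and 0 in place of 31, 27, 25, 2, 11 and 1.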
